A study of Brassica napus with 74 samples.

Results

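The genes described here were the 150 genes of *B. napus* that stood highest in the chalazal proliferating tissue (CPT) over every other dissected seed subregion at the globular and heart stages, out of 101040 genes measured. The level of a gene was given in TPM, a transcript unit that scales its reads by gene length and library total. Each gene was scored as the lower of its mean log2(TPM + 1) in the globular CPT (gCPT) and the heart CPT (hCPT), minus the highest mean among the other 14 globular and heart subregions, and the 150 genes of highest score were kept. A score above 0 was reached by 3853 genes. The scores of the 150 members ranged from 2.34 to 9.16 with a median of 3.52, and 31 members scored at least 6. The members were thus selected on the TPM of the 48 globular and heart libraries, so that their values at those stages are a description without a test. Tests were made on the ovule and mature green libraries, which took no part in the choice.

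The CPT is a maternal tissue that lies between the chalazal seed coat and the chalazal endosperm. It derives from the nucellus, the ovule tissue that encloses the female gametophyte. The chalazal end of a seed is where the vasculature of the funiculus terminates and where maternal nutrients pass toward the endosperm and embryo, and nucellar cells of many species are eliminated as the endosperm expands.

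Seeds of *B. napus* cv. Topas, an allotetraploid oilseed with an A and a C subgenome, were laser microdissected by the authors from fixed and sectioned material, and RNA was sequenced from 74 libraries of 26 subregions. The CPT was sampled in ovules (ovCPT, day 0, 2 libraries), at the globular stage (gCPT, day 7 after pollination, 3 libraries), at the heart stage (hCPT, day 10, 3 libraries) and at the mature green stage (mgCPT, day 28, 3 libraries). Other maternal subregions were the chalazal seed coat (CZSC), inner seed coat (ISC) and outer seed coat (OSC), and at the ovule stage these names stand for the corresponding integument regions. Filial subregions were the chalazal, peripheral and micropylar endosperm (CZE, PEN and MCE) and the embryo proper (EP), with the cotyledons (COT) and root of the embryo at the mature green stage. No genotype or treatment differed between groups, and each library was made from pooled sections, so that a spread between libraries is a spread between pools.

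Libraries differed in depth and in background. Recovered reads, a lower limit of depth, ranged from 182319 to 20304498 per library. The ovCPT replicate 2 was the shallow CPT library with 253164 reads, against 5868704 in ovCPT replicate 1, and 57 members had 0 reads in it. The share of all genes above 1 TPM was 85.0% in ovCPT replicate 1 and 52.7% in ovCPT replicate 2. It was 90.2%, 74.1% and 34.0% in the mgCPT libraries, and 44.5% to 74.9% in the other maternal mature green libraries. The sample labels give the tissue of mgCPT replicate 1 as endosperm, whereas its title names the CPT, which was followed here. A mgCZSC library without a replicate number may be a repeat of another library of that subregion. Where a result rested on one of these libraries, its value without that library is given beside it.

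Together the 150 genes held a large share of the transcript pool of the gCPT and hCPT, and a small share in every other subregion. Their summed TPM made up 0.327% and 0.460% of all TPM in the ovCPT libraries. It made up 16.3%, 16.9% and 17.5% in the gCPT libraries, a mean of 16.9% ± 0.611 (SD, n = 3). In the hCPT it made up 7.67%, 11.2% and 9.64%, a mean of 9.51% ± 1.78 (SD, n = 3). In the mgCPT it made up 0.0744%, 0.0993% and 0.208%. Hence the 6 gCPT and hCPT libraries stood far above the ovCPT and mgCPT libraries, and no library of the early pair overlapped with one of the ovule or mature green stage. The remaining 42 globular and heart libraries held 0.0127% to 0.217%. At the ovule stage both ovCPT libraries stood above the 9 others, which held 0.0515% to 0.181%, whereas the mgCPT libraries overlapped with the 7 other maternal mature green libraries, which held 0.0331% to 0.249%. In a bulk library, fewer cells of a type and less RNA per cell cannot be told apart, so that these shares do not give the level per CPT cell.

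**Figure D1:**
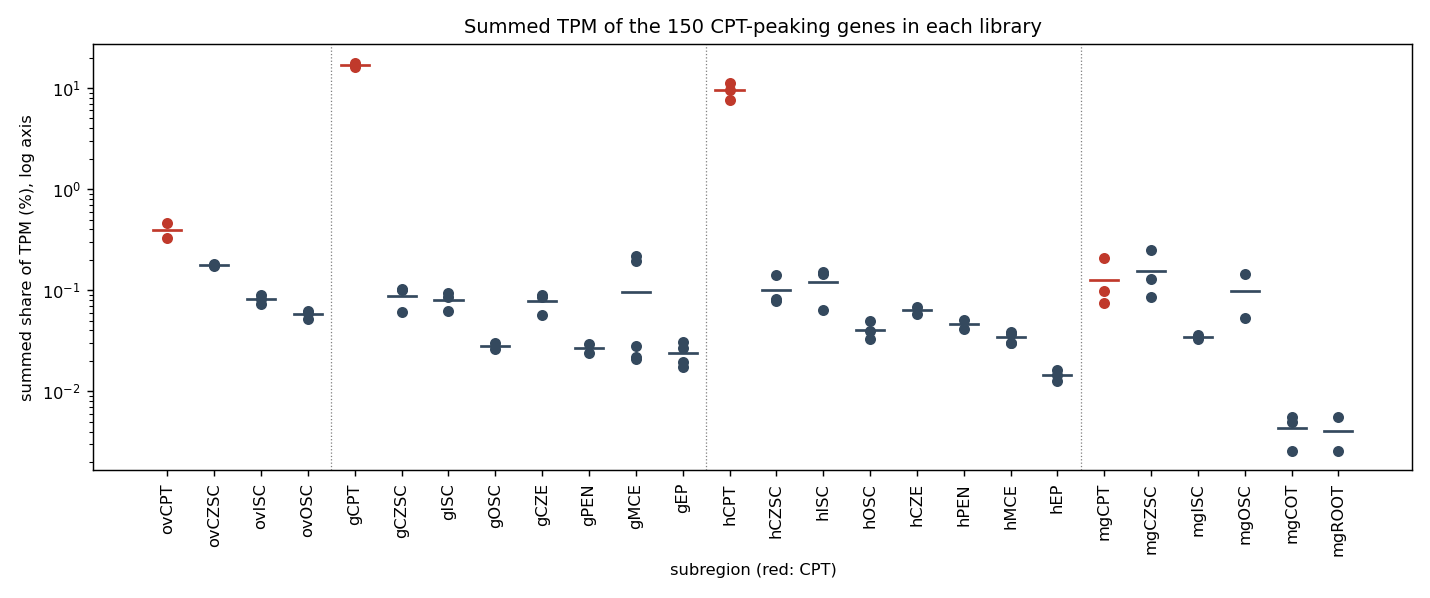
Summed TPM of the 150 genes as a percent of all TPM in each library, on a log axis, with 1 point per library a line at each mean, and the subregions of each stage side by side with the CPT (red) at the left. The 3 gCPT and 3 hCPT libraries lie between 7.67% and 17.5%, and the other 42 globular and heart libraries lie at or below 0.217%.

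The same rule applied to other subregions gave a sense of scale. The 150 genes chosen for the CPT held 16.9% and 9.51% of TPM in the gCPT and hCPT, the 150 chosen for the CZE held 16.1% and 15.3% in the gCZE and hCZE, and the 150 chosen for the CZSC held 2.23% and 1.53% in the gCZSC and hCZSC. These shares follow from the rule and were not tested against each other.

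The pool was uneven. The 10 most abundant members held 56.0% of the members' sum in the gCPT and 54.8% of it in the hCPT. Means of single members ranged from 14.2 to 19169 TPM in the gCPT, with a median of 175 TPM, and from 10.1 to 21175 TPM in the hCPT, with a median of 133 TPM. A mean above 1000 TPM was found for 29 members in the gCPT and 22 in the hCPT. Libraries of one subregion were close for most members, with a median SD of 19.9% of the mean in the gCPT and 30.1% in the hCPT. The fewest reads behind any member in a gCPT or hCPT library were 17.

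BnaA09g33020D had the highest score of all genes, 9.16. Its levels were 18409, 14952 and 15879.5 TPM in the gCPT libraries and 16189.9, 27835 and 19499 TPM in the hCPT libraries, against 0.000986 to 43.6 TPM (median 1.16 TPM) in the other 42 globular and heart libraries. A chalazal endosperm library, gCZE replicate 1, was the highest of those 42 and still lay far below each gCPT and hCPT library. In the ovCPT the gene stood at 5.66 and 0.113 TPM, with 15 and 0 reads, and since 0.01 reads had been added to each gene, a gene with 0 reads is listed above 0. It was listed in the mgCPT at 0.355, 18.8 and 2.39 TPM. The gene was thus abundant in the gCPT and hCPT and low in the CPT of both other stages.

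BnaC03g32760D was the most abundant member in the gCPT, at 32468, 12237 and 12803 TPM, with 2570, 2994 and 2983 TPM in the hCPT libraries. It had 0 reads in both ovCPT libraries and in mgCPT replicates 1 and 3. The first gCPT library stood well above the other gCPT pair for this gene, and every hCPT library lay below every gCPT library. BnaA05g32110D was at 8834, 10448 and 10843 TPM in the gCPT and at 3141, 5414 and 5279 TPM in the hCPT. BnaC03g33640D was at 8835, 8466 and 9407 TPM in the gCPT and at 3061, 4630.0 and 3594 TPM in the hCPT. It differed from the others in its mature green levels, which were 8.81, 39.7 and 36.6 TPM in the mgCPT and 1.88 to 521 TPM (median 74 TPM) in the other maternal mature green libraries, with the highest value in mgOSC replicate 1. The files, the study and the reference tables give none of these genes a name or a function.

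The next genes by score followed the same shape at lower levels. BnaC08g23830D (score 8.47) was at 4160.1, 5798 and 6523 TPM in the gCPT and 4981, 9227 and 6175 TPM in the hCPT, against at most 22.0 TPM in any other globular or heart library. BnaAnng15840D (score 8.44) was at 3592, 4872 and 4792 TPM in the gCPT and 1629, 3299.5 and 3219.7 TPM in the hCPT, against at most 9.84 TPM. Both of those highest outside values came from gCZE replicate 1. BnaA08g07710D and BnaC08g08490D (scores 8.41 and 7.97) had similar profiles, with means of 3565 and 3625 TPM in the gCPT and 2479 and 1842 TPM in the hCPT, and neither exceeded 8.97 TPM in any other globular or heart library. The remaining members among the 12 of highest score were BnaA05g32110D, BnaCnng75800D, BnaC03g28370D, BnaC06g36700D, BnaA10g14560D, BnaC05g46770D and BnaC09g36860D, with scores of 7.32 to 7.87.

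**Figure D2:**
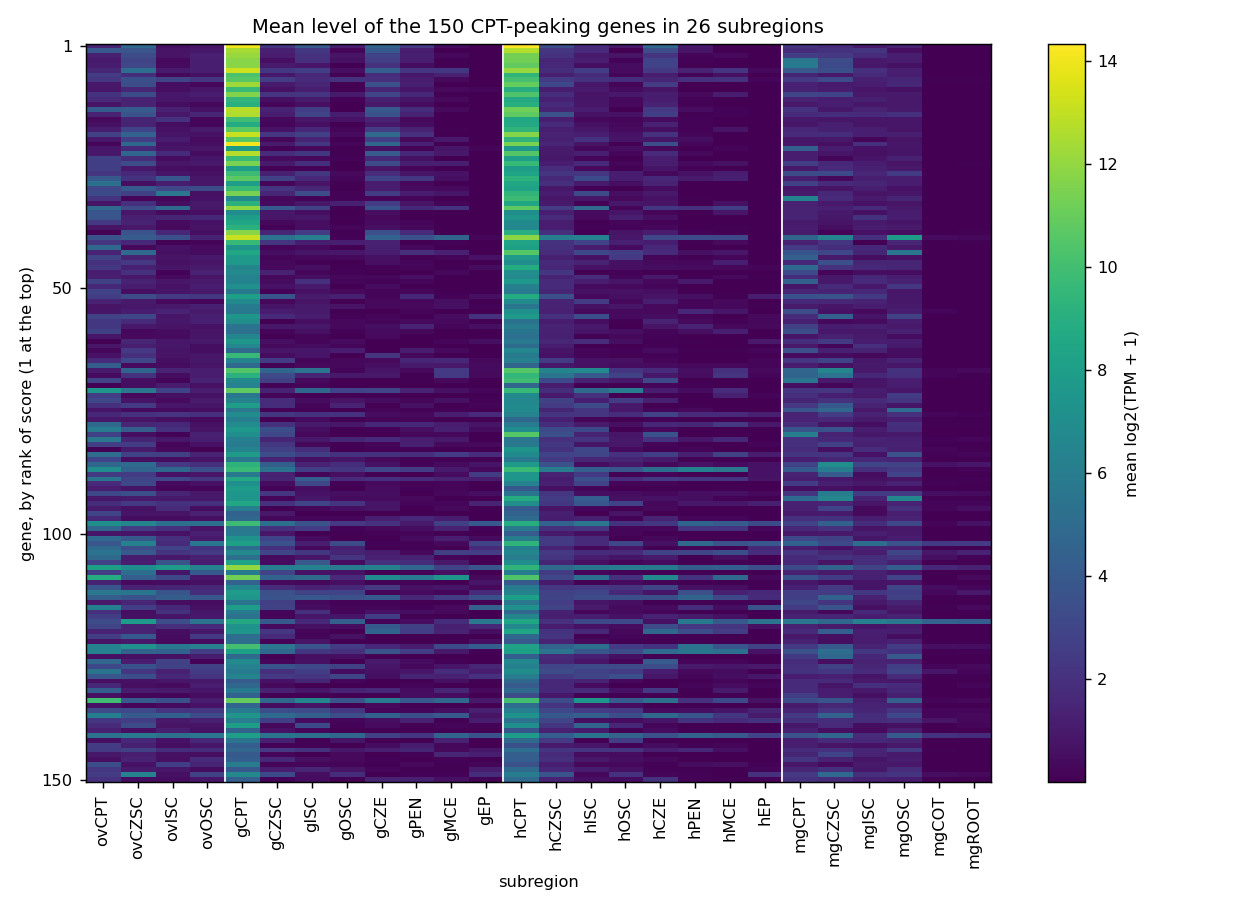
Mean log2(TPM + 1) of each of the 150 genes (ordered by score from top to bottom) in the 26 subregions, with the CPT columns at the left of each stage. Color is high in the gCPT and hCPT columns for every gene and low in nearly all other cells, with scattered intermediate values in the ovCPT.

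For 1 of the 150 members, BnaAnng05900D, the 6 gCPT and hCPT libraries did not all stand above the 42 other globular and heart libraries, and for the rest they did, which the rule itself favors. Its levels were 1735, 2953 and 3008 TPM in the gCPT and 1376, 985 and 1769.5 TPM in the hCPT, whereas gMCE replicates 4 and 5 held 1737 and 1614 TPM. These endosperm libraries overlapped with the CPT range, and the gene alone made up 80.2% and 82.7% of the members' summed TPM in them. Without it, the summed share in gMCE replicates 4 and 5 was 0.0430% and 0.0337%.

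Among the 14 other globular and heart subregions, the hCZSC came nearest to the CPT for the most members. The highest mean outside the CPT was in the hCZSC for 51 members, in the hISC for 22, in the gCZE for 21, in the gCZSC for 16 and in the hCZE for 13. The rest were spread over other subregions, with at most 8 in any of them. The median level of a member in the hCZSC was 2.62% of its hCPT level, and in the hISC 1.27%. Background was high in the hCZSC, where 91.0% of all genes averaged above 1 TPM, against 26.7% to 44.7% in the others of the 14. By library the hCZSC share was 39.8%, 75.8% and 97.0%. Without hCZSC replicate 3, 4834 genes scored above 0, against 3853 with it. The part of this background in the count of 51 was not tested. For the 31 members of score 6 or more, the next subregion was instead the chalazal endosperm for most, namely the gCZE for 16 and the hCZE for 3, with the hCZSC next for 7, the gCZSC for 2, the hISC for 2 and the gISC for 1. Over those 31 members the median gCZE level was 0.236% of the gCPT level (range 0.0853% to 0.540%), with 0.129% in the gISC and 0.0420% in the gCZSC. At the heart stage the medians were 0.246% of the hCPT level in the hCZSC, 0.164% in the hCZE and 0.146% in the hISC. A score of 6 or more itself keeps every other globular and heart subregion low, so that these small fractions follow from the choice of genes.

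In the embryo most members were at low levels or not detected, as were many genes. Of the 150 members, 102 (68.0%) were under 1 TPM in all 7 globular and heart EP libraries, beside 51.5% of all genes, and 76 had 0 reads in all of them. The EP of both stages was among the subregions that the score set the CPT against, so that the rule itself favors low levels there. In all 5 libraries of the mature green cotyledons and root, 140 members (93.3%) were under 1 TPM, beside 92.2% of all genes, and 67 had 0 reads. The mature green share was thus near that of all genes. The counts at 0 reads were not made over all genes, and at these depths a level of 0 reads means not detected in the library.

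More members were higher in the gCPT than in the hCPT. This count was 99 of 150, with 51 higher in the hCPT, and the median difference in mean log2(TPM + 1) was 0.57 toward the gCPT. Over the 67507 genes at 1 TPM or more, 38.7% were higher in the gCPT and the median difference was -0.35. Background was higher in the hCPT, where 64.6% of all genes averaged above 1 TPM, against 37.7% for the gCPT. By library the hCPT share was 38.7%, 46.7% and 84.0%. The part of this background in the all-gene values was not tested. All gCPT libraries stood above all hCPT libraries for 62 members, and the reverse held for 25. The same counts were not made over all genes, so that they are not read as particular to the members. Both stages chose the members, so that no test is given.

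BnaA02g33300D showed the largest difference toward the gCPT, 3.91 on the log2 scale, with 162, 280 and 285 TPM in the gCPT and 4.41, 16.8 and 39.0 TPM in the hCPT. BnaC07g33790D followed with 3.60, at 410, 1085 and 1028 TPM in the gCPT and 66.5, 49.1 and 74.7 TPM in the hCPT, and its neighbor in the identifier order, BnaC07g33780D, with 2.72. For each of these 3 genes all gCPT libraries exceeded all hCPT libraries. The opposite end held BnaC07g45140D at -3.40, with 176, 115 and 135 TPM in the gCPT and 1834, 1766 and 1013 TPM in the hCPT. BnaA03g52930D stood at -3.04, with 131, 99.8 and 113 TPM in the gCPT and 1222, 1136 and 609.7 TPM in the hCPT. BnaC06g37840D stood at -2.98, and its hCPT libraries were uneven, at 1479, 1705 and 302 TPM, against 94.5, 123 and 130 TPM in the gCPT. These 3 genes did not overlap between the stages either.

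**Figure D3:**
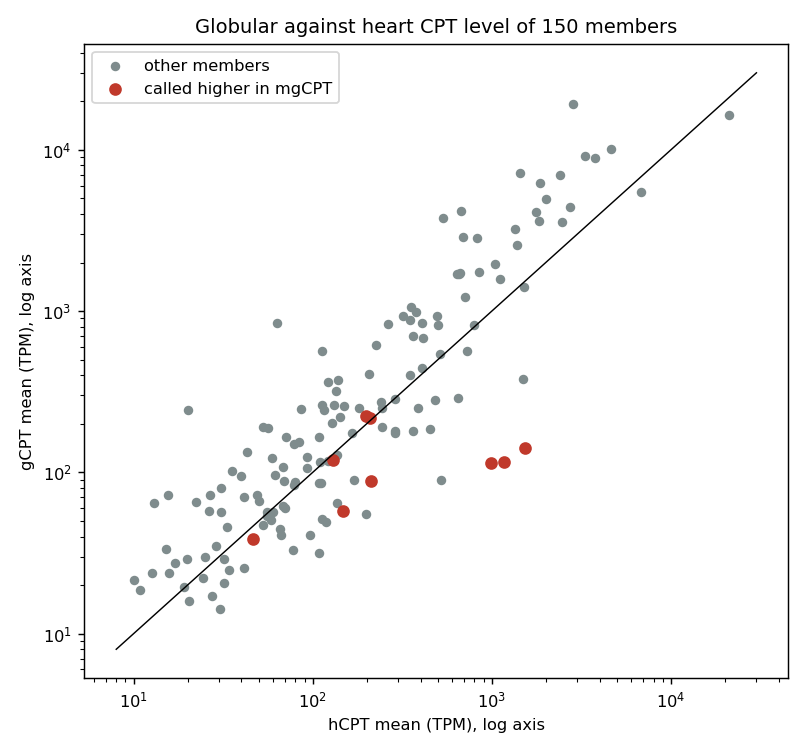
Each of the 150 genes by its mean TPM, with the gCPT on the vertical axis and the hCPT on the horizontal axis, both log axes, with the line of equal levels. Most points (99 of 150) lie on the gCPT side, and 7 of the 9 genes that were higher in the mgCPT by the test (red) lie on the hCPT side.

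The members came from both subgenomes, 77 from the A and 73 from the C subgenome. The A share was 51.3%, beside 44.2% over all genes with a subgenome in the identifier. Of the 132 members placed on a chromosome, 21 formed 10 runs of identifiers that follow each other closely, and the order of identifiers stands for order along the chromosome. The only run of 3 was BnaC05g46750D, BnaC05g46760D and BnaC05g46770D on chromosome C05. Their means were 698, 6997 and 3248 TPM in the gCPT and 362, 2396 and 1341 TPM in the hCPT, so that the middle gene was the highest in both subregions. Neighboring copies of similar sequence can share reads, and since the authors counted uniquely mapped reads, levels of such copies are uncertain.

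Homoeologs, the A and C copies of one ancestral gene, could be looked up for 3847 pairs, and 6 of these pairs held a member. In 4 pairs both copies were members. BnaA03g49600D was higher than its C copy BnaC07g50710D, with 9196 ± 2814 and 1689.9 ± 677 TPM in the gCPT and 3325 ± 827 and 659 ± 135 TPM in the hCPT (SD, n = 3 each). BnaA03g23890D and BnaC03g28410D were nearer to each other, with 2826 ± 698 and 1716 ± 308 TPM in the gCPT and 825 ± 284 and 665 ± 199 TPM in the hCPT. BnaA03g39740D and BnaCnng21210D, annotated by the study with DNA binding in the nucleus, had 88.0 ± 10.5 and 57.5 ± 19.0 TPM in the gCPT and 211 ± 35.9 and 148 ± 35.2 TPM in the hCPT. In the pair BnaA03g52930D and BnaC07g45140D the C copy was the higher, with 115 ± 15.6 and 142 ± 30.9 TPM in the gCPT and 989 ± 332 and 1538 ± 455 TPM in the hCPT. The C copy was the higher in each of these 6 libraries, and both copies were higher in the hCPT. In 2 further pairs only the A copy was a member, and the C copy scored lower but above 0, at 0.69 for BnaC03g09150D and 1.71 for BnaC04g24950D.

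An annotation was found for 16 of the 150 members, and these terms are all that the sources give on function. BnaCnng49040D was annotated as a sequence-specific transcription factor with terms for shoot apical meristem specification and vasculature development, and averaged 134 TPM in the gCPT and 42.9 TPM in the hCPT. BnaA03g19860D, annotated as a transcription coactivator, averaged 176 and 165 TPM. BnaA06g38470D and BnaC05g13970D carried terms for calcium ion binding at the plasma membrane and were the most abundant annotated members in the gCPT, at 929 and 1063 TPM, with 496 and 354 TPM in the hCPT. BnaA08g27400D, annotated to the Golgi apparatus, averaged 377 TPM in the gCPT and 1489.8 TPM in the hCPT.

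A further group concerned walls and metabolism. BnaA05g16360D and BnaC05g28950D carried terms for xyloglucan metabolism in the cell wall, and xyloglucan is a hemicellulose that tethers cellulose. They averaged 85.3 and 53.5 TPM in the gCPT and 109 and 55.3 TPM in the hCPT. BnaC09g08540D, annotated as a serine-glyoxylate transaminase of photorespiration, averaged 70.0 TPM in the gCPT and 41.6 TPM in the hCPT. BnaA05g24610D, annotated as a phosphoenolpyruvate carboxylase, the enzyme that forms oxaloacetate from phosphoenolpyruvate, averaged 20.7 and 31.8 TPM and was the last gene within the threshold. The lists of proteases, transporters, wall enzymes and hormone genes drawn up for this tissue could not be matched by name to the other members.

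The boundary of the group was not a gap. The last 3 members, BnaC05g48690D, BnaA09g34600D and BnaA05g24610D, scored 2.34, and the first 3 genes outside, BnaA09g11050D, BnaA03g55670D and BnaA04g01150D, scored 2.34, 2.33 and 2.33.

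Genes known for the chalaza, the endosperm and other seed tissues were read beside the members to check the tissue. None of them was a member. The chalaza and nucellus list held 6 genes for *WIH1*, *WIH2* and *CEP1*, of which *CEP1* encodes a cysteine endopeptidase. They summed to 933 to 1209 TPM in the gCPT and 2236 to 3226 TPM in the hCPT. The highest sum outside the CPT lay within the gCPT range at the globular stage and was 6982 TPM at the heart stage. The A copies of *WIH2* and *WIH1* scored 0.67 and 0.75, and their listed C copies -3.22 and -0.52. The *WIH2* copy BnaC04g47670D averaged 16.0 TPM in the gCPT against 63.9 TPM in the gCZSC. The *WIH1* copy BnaC03g23330D averaged 0.604 TPM in the gCPT. The *CEP1* copies averaged more in the hISC than in the hCPT, and at the globular stage they differed in which subregion was higher. The A copy averaged 363 TPM in the gCPT against 634 TPM in the gISC, and 1611 TPM in the hCPT against 3448 TPM in the hISC. The C copy BnaC03g27700D averaged 190 TPM in the gCPT against 90.7 TPM in the gISC, and 812 TPM in the hCPT against 1723 TPM in the hISC. The endosperm list of 8 genes summed to 68.7 to 117 TPM in the gCPT and 30.8 to 71.6 TPM in the hCPT, mostly from *RGP2*, while the *TBL42* and *GATL5* copies averaged at most 2.17 TPM in both. The 29 genes of stored protein and oil summed to 8.87 to 10.9 TPM in the gCPT and 164 to 388 TPM in the hCPT. Of the seed coat epidermis list, only the *UGE1* pair was high in the CPT, with 2563 and 2800 TPM in the gCPT and scores of 2.24 and 1.89, below that of the last member.

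The first test asked whether genes chosen at the globular and heart stages were already higher in the ovCPT than in the rest of the ovule. Levels were mostly low at that stage. The mean ovCPT level was a median of 2.52% of the higher of the gCPT and hCPT means, 39 members reached at least 10%, and 51 stayed under 1%. BnaC09g00710D reached the highest fraction, 71.4%.

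By limma on log2(TPM + 1), with Benjamini-Hochberg adjustment over all 87297 genes tested, 51 of the 145 members tested were higher in the ovCPT than in the other ovule subregions and 0 were lower. The background was high in this comparison, since 25.4% of all genes tested were higher and 12.6% lower, against 35.2% of the members higher. At an unadjusted p under 0.05, 58 members were higher and 1 was lower, beside 30.7% and 15.6% of all genes. The median difference of the members was 0.80 on the log2 scale, and of all genes 0.39. Both ovCPT libraries stood above all 9 others for 49 members, 33.8% of those tested, beside 21.7% of all genes, and below all 9 for 0 members, beside 10.8% of all genes. The 5 members that were not tested had means under 1 TPM in every ovule subregion entered. The members' share above background was therefore modest. Of the 31 members of score 6 or more, 4 were called, a lower share than the 25.4% of all genes.

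The 4 largest differences in the ovCPT were far outside the spread between libraries. BnaC02g00930D was at 719 and 1336 TPM in the ovCPT, from 4614 and 287 reads, against 0.672 to 17.5 TPM (median 10.2 TPM) in the 9 other ovule libraries. The groups did not overlap, and the difference was 7.03 ± 0.89 (SE) on the log2 scale, with an adjusted p of 0.000173 by limma and an exact permutation p of 0.0182, the smallest that 2 against 9 libraries allow. BnaAnng05900D, the gene seen above in the micropylar endosperm, was at 388 and 564 TPM against 0.328 to 21.3 TPM (median 4.84 TPM), a difference of 6.11 ± 1.00 (adjusted p = 0.000876 by limma). BnaC09g43200D was at 38.5 and 132 TPM against 0.264 to 6.87 TPM (median 1.38 TPM), a difference of 4.55 ± 0.72 (adjusted p = 0.000701 by limma). BnaC09g00710D was at 45.9 and 57.1 TPM against 0.680 to 2 TPM (median 1.42 TPM), a difference of 4.51 ± 0.33 (adjusted p = 2.59e-06 by limma). None of these 4 overlapped between the groups, and each kept its call in all 20 alternative fits.

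Of the annotated members, the wall genes BnaA05g16360D and BnaC05g28950D were higher in the ovCPT by 2.29 ± 0.44 and 2.25 ± 0.45 (adjusted p = 0.00208 and 0.0025 by limma). The coactivator BnaA03g19860D was higher by 2.23 ± 0.38 and BnaA07g09920D, annotated as an ADP-ribosyltransferase, by 2.99 ± 0.56. The calcium-binding members differed in their result, since BnaA06g38470D was higher by 1.44 ± 0.48 (adjusted p = 0.0292 by limma) whereas BnaC05g13970D had a difference of -0.04 ± 0.47. That pair was not tested against each other. The transcription factor BnaCnng49040D had a difference of 1.05 ± 0.48 and did not pass (adjusted p = 0.102 by limma). The smallest differences that passed were 0.88 for BnaA10g14440D, 1.05 for BnaC05g38590D, 1.24 for BnaA07g33290D and 1.32 for BnaC06g19410D. The call of BnaA10g14440D was not stable, since it passed in 10 of the 19 alternatives that tested it and in 5 of the 11 fits that left out a library, with differences down to 0.19 (adjusted p up to 0.592 by limma).

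The ovule counts rested on few reads. In ovCPT replicate 2, 30 of the 51 genes called had 1 to 3 reads, and 11 of the 51 had at least 10 reads in both ovCPT libraries. Without ovCPT replicate 2 the median difference of the members was 0.86, and of all genes 0.50. Without ovCPT replicate 1 the medians were 1.02 and -0.05. Each of these fits rested on a single ovCPT library. With quantile normalization, which brought the median difference of all genes to 0.05, 39 members were higher and 2 lower, beside 14.4% and 17.4% of all genes. Genes for stored protein and oil summed to 90.6 to 1425 TPM in the ovCPT and to 25.6 to 119 TPM in the other ovule libraries, and their part in the result was not tested.

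**Figure D4:**
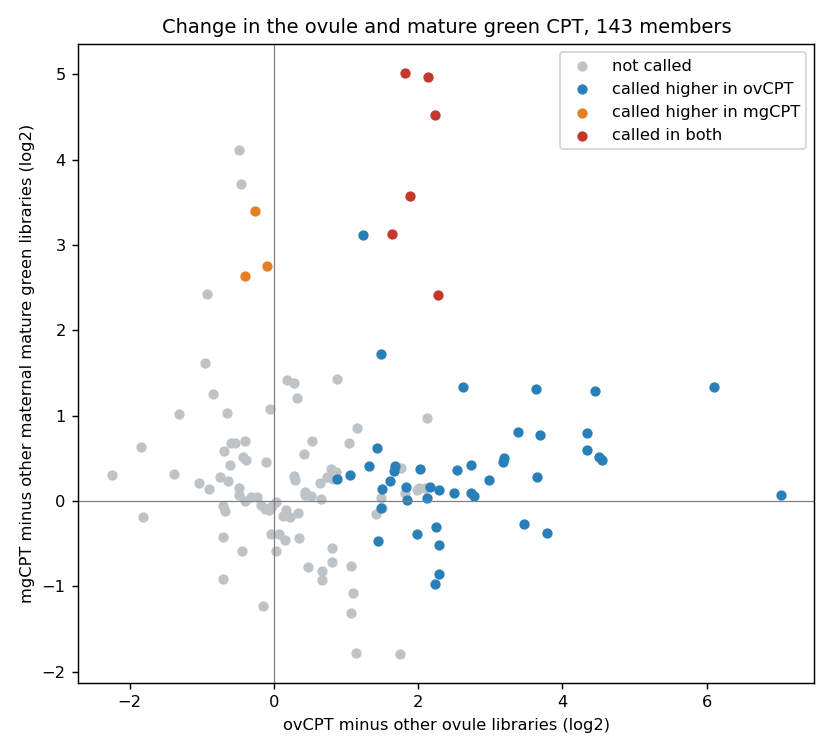
Log2 difference of the ovCPT from the other ovule libraries (horizontal axis) and of the mgCPT from the other maternal mature green libraries (vertical axis) for the 143 members tested at both stages, colored by the call at each stage. The 6 genes called at both stages (red) lie at 2.42 or higher on the mature green axis, whereas the 4 largest ovule differences lie between 0.06 and 1.33 on it.

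At the mature green stage few members were higher in the mgCPT, and few genes of any kind were. The mean mgCPT level was a median of 1.95% of the higher of the gCPT and hCPT means, 13 members reached at least 10%, and 52 stayed under 1%. By limma with Benjamini-Hochberg adjustment over 93032 genes, 9 of 148 members tested were higher in the mgCPT than in the mgCZSC, mgISC and mgOSC, which is 6.08%, and 0 were lower. Of all genes tested, 0.0204% were higher, that is 19 genes, so that the 9 members were among these 19. At an unadjusted p under 0.05, 23 members were higher and 0 lower, beside 1.43% and 0.785% of all genes. All mgCPT libraries stood above all 7 others for 17 members, 11.5% of those tested, beside 0.307% of all genes, and below all 7 for 0 members, beside 0.311% of all genes. The median difference over the members was 0.24, and over all genes 0.05.

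The most abundant of the 9 were genes of the heart CPT. BnaC06g37840D was at 61.7, 43.4 and 261 TPM in the mgCPT against 0.00822 to 10.7 TPM (median 1.78 TPM) in the other maternal libraries, and the difference was 5.02 ± 0.70 on the log2 scale (adjusted p = 0.0135 by limma). BnaC07g45140D was at 46.1, 64.0 and 115 TPM against 0.0114 to 3.56 TPM (median 1.29 TPM), a difference of 4.97 ± 0.53 (adjusted p = 0.000824 by limma). Its A copy BnaA03g52930D was at 31.0, 38.2 and 73.5 TPM against 0.0135 to 1.95 TPM (median 0.774 TPM), a difference of 4.52 ± 0.45 (adjusted p = 0.000718 by limma). For these 3 genes no library of the groups overlapped, and the same 3 genes had the largest differences toward the hCPT.

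The other 6 were lower in level and in difference. BnaC09g05030D was at 13.7, 13.5 and 40.4 TPM in the mgCPT against at most 1.44 TPM, with a difference of 3.58 ± 0.42, and BnaA09g05450D was at 13.0, 12.3 and 43.3 TPM against at most 1.63 TPM, with a difference of 3.40 ± 0.43. The DNA-binding pair followed, with BnaA03g39740D at 12.2, 21.4 and 31.1 TPM against at most 2.44 TPM (3.12 ± 0.46) and BnaCnng21210D at 7.40, 8.91 and 12.7 TPM against at most 1.89 TPM (2.63 ± 0.40). BnaA01g02550D differed by 2.75 ± 0.44 and BnaA05g34000D by 2.42 ± 0.36. The exact permutation p was 0.00833 for each of the 9 genes, the smallest that 3 against 7 libraries allow. Of the 9, 7 were higher in the hCPT than in the gCPT, and their median difference gCPT minus hCPT was -1.24, against 0.68 over the other members tested.

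**Figure D5:**
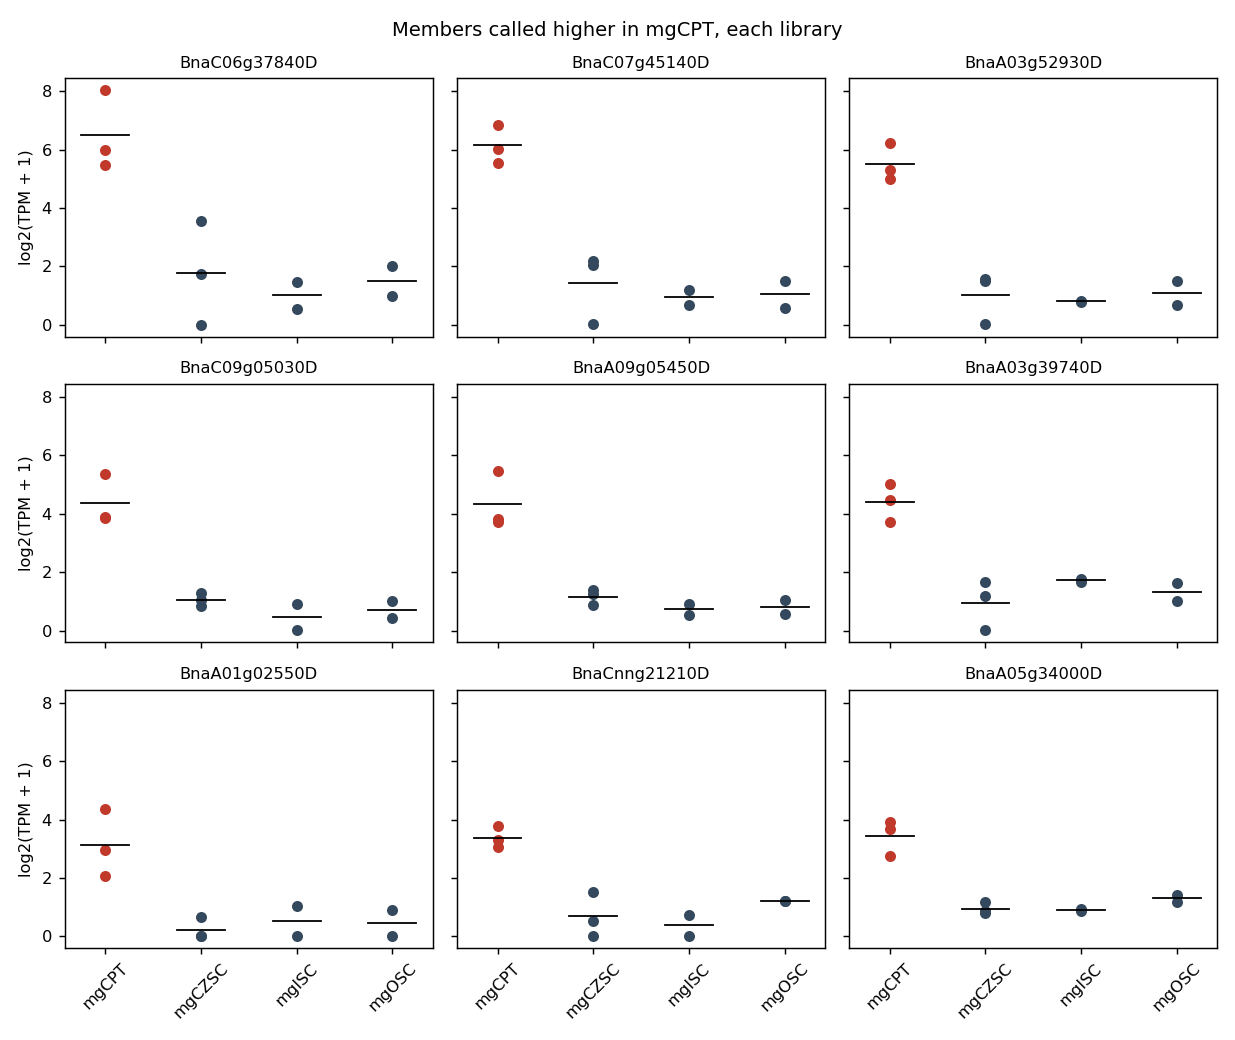
Level of the 9 members called in the mgCPT, as log2(TPM + 1), with 1 point per maternal mature green library and a line at each mean, the 3 mgCPT libraries at the left of each panel and the 7 other libraries by subregion at the right. In every panel the mgCPT points lie above all others, and mgCPT replicate 3 is the highest in each.

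The 3 largest differences that were not called belonged to 2 of the members of highest score and 1 ovule gene. BnaC08g08490D was at 36.1, 34.6 and 164 TPM in the mgCPT against 0.487 to 10.1 TPM (median 1.35 TPM), a difference of 4.11 ± 0.73 (adjusted p = 0.094 by limma). BnaA08g07710D was at 32.9, 24.6 and 162 TPM against 0.440 to 10.7 TPM (median 1.67 TPM), a difference of 3.72 ± 0.73 (adjusted p = 0.192 by limma). BnaA07g33290D differed by 3.11 ± 0.53 (adjusted p = 0.0697 by limma). None of these 3 overlapped between the groups, although they missed the adjusted limit.

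All 9 calls had at least 13 reads in each mgCPT library. Without mgCPT replicate 3, which had the highest level of each of them, 4 of the 9 remained, and 5 remained without mgCZSC replicate 1 or without mgOSC replicate 2. Without mgCPT replicate 1, the library labeled as endosperm, 6 remained, and without the unnumbered mgCZSC library 7. BnaC07g45140D, BnaA03g52930D, BnaC09g05030D and BnaA09g05450D were called in every fit that left out a library. With a pseudocount of 0.1 TPM, 0 members were called and 20 passed an unadjusted p under 0.05. Genes for stored protein and oil summed to 16861 to 85311 TPM in the mgCPT and to 4853 to 76857 TPM in the other mature green libraries. The endosperm list summed to 21.6 to 36.7 TPM in the mgCPT and to 1.05 to 95.6 TPM in the other mature green libraries, and the part of either list in the result was not tested.

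The ovule and mature green calls shared 6 genes, which were BnaA03g39740D, BnaA03g52930D, BnaA05g34000D, BnaC06g37840D, BnaC07g45140D and BnaC09g05030D. They made up 11.8% of the 51 ovule calls and 66.7% of the 9 mature green calls. Of all genes tested, 25.4% were higher in the ovCPT by limma. The overlap was not counted over all genes, so that it is not read as particular to the members. In the ovCPT each of the 6 had 1 or 2 reads in replicate 2, and without that library 1 gene remained called at both stages. Of the 150 members, 143 were tested at both stages, and 96 of the 150 were called at neither.

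The differences at the 2 stages were then compared gene by gene with limma, which tested the ovule difference minus the mature green difference over 98023 genes. Of the 150 members, 23 had a larger difference in the ovCPT and 9 a larger difference in the mgCPT, beside 8.05% and 3.92% of all genes. Toward the ovCPT stood the 4 leading ovule genes, which had mature green differences of 0.06 to 1.33. Toward the mgCPT the values furthest below 0 were -4.59 for BnaC08g08490D and -4.17 for BnaA08g07710D, and BnaC08g31980D stood at -3.34. None of these passed the mature green test itself. The others toward the mgCPT were all called there, and of these BnaC06g37840D, BnaC07g45140D and BnaA03g52930D were also called in the ovCPT, whereas BnaA09g05450D, BnaCnng21210D and BnaA01g02550D were not higher in the ovCPT by the test. Without mgCPT replicate 3 the count toward the mgCPT was 3. Without ovCPT replicate 2 a single ovCPT library was left, and fewer members passed on either side. Neither change was counted over all genes, so that a general loss of calls cannot be told apart.

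Over all 26 subregions, each member was set beside the mean profile of the group. The Pearson correlation of a member with the mean profile of the group had a median of 0.920 over the 26 subregion means, which share libraries and the choice of genes. The rule chose genes high in the gCPT and hCPT and lower in the 14 other globular and heart subregions. Each member is also part of the mean, so that high correlations follow from the choice. The highest values were 0.981 for BnaC09g36860D, 0.977 for BnaC06g09720D and BnaAnng40860D, 0.974 for BnaCnng75800D and 0.973 for BnaC05g46770D. BnaC09g36860D was at 580, 746 and 721 TPM in the gCPT and 261, 524 and 456 TPM in the hCPT, and did not exceed 2.90 TPM in any library outside the CPT. The lowest correlation was 0.532.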

How the data were processed

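RNA-seq values of 74 LMD libraries were used as deposited by the authors, in TPM, with a total of 1000000 in each library. For these files, the authors used fastp for trimming, HISAT2 for alignment to the Darmor-bzh genome, and featureCounts on uniquely mapping reads. They had added 0.01 reads to every gene, which was used to recover the reads behind each value, for 150 of 150 members and 100746 of 101040 genes (whole within 0.05 reads or 0.05%). Depth is therefore a lower limit, and reads cover counting error only.

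Libraries were assigned to subregions by title. The mgCZSC library without a number was kept as an unnumbered library. Labels of mgCPT replicate 1, mgCOT replicate 1 and mgCOT replicate 2 disagreed with their titles. Members were chosen on means of log2(TPM + 1), which is a log2 scale computed here from the deposited TPM. Fold changes on that scale understate those of low genes.

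The ovCPT (2 libraries) was compared with the ovCZSC, ovISC and ovOSC (9 libraries), and the mgCPT (3) with the mgCZSC, mgISC and mgOSC (7), by limma 3.58.1 in R 4.3.3 with a trend in the variance. A gene entered where some subregion of the stage averaged 1 TPM or more, and p-values were two-sided with Benjamini-Hochberg adjustment over all genes tested and a limit of 0.05. Single genes were also tested by an exact two-sided permutation over libraries. Each library is a pool of sections, and the other subregions of a stage entered as a single group. The p-values thus measure the spread between pools together with the differences between those other subregions. Scripts were tested on simulated data.

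The members, gene lists and tests were chosen with earlier results of these data known. Genes named were the 12 of highest score, the 6 most abundant, the 4 largest and 4 smallest differences called at each stage, the 3 largest differences between gCPT and hCPT each way, the 3 genes on each side of the threshold, homoeologous pairs, runs of 3 neighbors, annotated members and the 5 profiles nearest to the mean. The few genes outside this rule were named after their values were seen. The alternatives were other pseudocounts, filters, scalings and fits, and leaving out each library. The comparison of the differences at both stages, the alternatives to it and those to the summed share were added after seeing the data. No reference sequence of the members was used here.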

Additional observations from a re-analysis of the deposited data

Results flagged for a closer look

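For 23 members the difference of the ovCPT from the other ovule subregions was larger than the difference of the mgCPT from the other maternal mature green subregions, and for 9 it was smaller, by limma with Benjamini-Hochberg adjustment over all genes tested. Each value is the ovule difference minus the mature green difference on the log2 scale, with the SE where one is given. Among the 23, the highest value was 6.96 ± 1.24 for BnaC02g00930D (adjusted p = 0.00137). The next were 4.78 for BnaAnng05900D, 4.17 for BnaA05g20490D, 4.08 for BnaC09g43200D, 4.00 for BnaC09g00710D, 3.75 for BnaC05g33170D and 3.54 for BnaC03g02730D. The wall genes of this group stood at 2.80 for BnaA05g16360D and 2.56 for BnaC05g28950D, the coactivator BnaA03g19860D at 3.21 and BnaA07g09920D, annotated as an ADP-ribosyltransferase, at 2.74. The remaining members with a larger ovule difference were at 3.37 for BnaA01g04530D, 3.15 for BnaCnng44340D, 3.14 for BnaCnng03760D, 2.92 for BnaC08g27310D, 2.73 for BnaA09g35810D and 2.71 for BnaC06g31460D, and at 2.69 for BnaA09g01560D, 2.37 for BnaAnng40860D, 2.31 for BnaA06g14160D, 2.09 for BnaC02g16740D, 1.99 for BnaA03g55660D and 1.85 for BnaA07g24140D. On the mgCPT side, the lowest values were -4.59 ± 1.17 for BnaC08g08490D (adjusted p = 0.0159), -4.17 ± 1.15 for BnaA08g07710D (adjusted p = 0.023) and -3.65 ± 0.64 for BnaA09g05450D (adjusted p = 0.00112). The others on that side were at -3.34 for BnaC08g31980D, -3.19 for BnaC06g37840D, -3.03 for BnaCnng21210D, -2.85 for BnaA01g02550D, -2.83 for BnaC07g45140D and -2.28 for BnaA03g52930D.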

How the results depend on the processing

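The 51 calls in the ovCPT and the 9 in the mgCPT kept their direction in every alternative that tested them, and 25 of the 51 and 0 of the 9 also stayed past the threshold in each. Of the 150 members, 121 to 143 stayed in the group under the other pseudocounts, means and scalings, and 141 to 150 when a library was left out. Rescaling each library without the 50 genes of highest mean TPM, which include BnaA09g33020D, brought the genes with a score above 0 to 2197, the summed share to 11.8% in the hCPT and 0.265% in the mgCPT, and the count of larger ovule differences to 14. With a pseudocount of 0.1 TPM, 0 members were called in the mgCPT and 0 at both stages, and 11 and 3 members had a larger difference in the ovCPT and in the mgCPT. With quantile normalization those counts were 9 and 14. A fit on all libraries called 17 members higher and 1 lower in the mgCPT (232 higher and 449 lower over all genes). In the ovCPT that fit called 65 higher and 7 lower, beside 31.9% and 15.8% of all genes. The mean per subregion gave 64 higher and 6 lower in the ovCPT, beside 27.4% and 15.7% of all genes. The causes were not tested. Leaving out 1 library at a time gave 35 to 52 calls in the ovCPT, 4 to 9 in the mgCPT (4 without mgCPT replicate 3, 5 without mgCZSC replicate 1 and 5 without mgOSC replicate 2), 1 to 6 at both stages (3 without mgCPT replicate 3), 9 to 25 larger differences in the ovCPT and 3 to 10 in the mgCPT. Replicate numbers did not pair the libraries, since same-numbered libraries correlated at -0.067 to 0.036 in ovules and at -0.186 to 0.279 at the mature green stage. With a replicate block, 48 members were called in the ovCPT, 11 in the mgCPT (on the 9 numbered libraries) and 5 at both stages. Depth limits the ovule result, since 1 read in ovCPT replicate 2 was worth a median of 6.84 TPM over the members.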

Other observations

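BnaAnng05900D was at 1737 and 1614 TPM in gMCE replicates 4 and 5 and at 35.0 to 37.9 TPM in gMCE replicates 1 to 3. In all, 8 members were at least 10 times higher in gMCE replicates 4 and 5 than in gMCE replicates 1 to 3 and above 1 TPM there, among them BnaC06g19410D and BnaC03g55590D. The same count was not made over all genes, and these libraries also differed as a whole. Recovered reads were 182319 to 611913 in replicates 1 to 3, and 1164122 and 3515263 in replicates 4 and 5. The 50 genes of highest mean TPM held 72.0% to 75.4% of TPM in replicates 1 to 3, and 37.9% and 36.8% in replicates 4 and 5. The next highest member in gMCE replicates 4 and 5 was BnaC02g00930D, at 131 and 87.8 TPM, and this gene was also the highest member in the ovCPT. These differences were not tested, since the same libraries chose the members.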
